A study of Mus musculus with 502 samples.

Results

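The regions described are the wide silencers of 293T, a human cell line derived from embryonic kidney. They were chosen by their width alone: they are the lines of the authors' 293T silencer list on chromosomes 1 to 22 that span over 300 bp and at most 5000 bp. Of 119180 well-formed autosomal lines in that list, 1663 met the rule, and the remaining 117517 lines, of 300 bp or less, are called the other 293T silencers. The analysed lines of the 3 lists of the series number 397136.

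The study mapped silencers with Ss-STARR-seq in 293T, in K562, a leukaemia line with erythroid features, and in LNCap, a prostate cancer line. Genomic DNA sheared to 300 to 400 bp, per the labels' protocols, was cloned into a reporter plasmid and transfected, and the plasmid pool (input DNA) and the RNA made from it (output) were sequenced. Of 502 labelled libraries 180 are output RNA of K562 and 281 output RNA of 293T or LNCap, and input DNA has 1 library for 293T and 40 for LNCap, with no treatment named, and all are labelled as mouse although the lines and the build, hg38, are human. Each line is represented by 1 deposited list, so there are no replicate lists, no test across replicates was possible, and all intervals given are 95% Wilson intervals that cover counting error only; read depth is unknown.

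A silencer is a stretch of DNA that lowers the transcription of a gene, usually by recruiting repressor proteins such as REST, KRAB zinc finger proteins or Polycomb complexes. A reporter assay of this kind reads the repression that a short fragment exerts on a plasmid promoter, away from its own chromatin. A wide line is a longer called interval, which need not be 1 longer regulatory element, and how the authors called and joined intervals is not given among the sources here. No human genome or gene annotation was used here, so no gene, exon or intron is named and no sequence is printed for the positions below, which are on hg38 as deposited.

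The width chose these silencers, so widths are a description. The widths ran from 301 to 1030 bp, with a median of 351 bp and quartiles of 350 and 401 bp. Silencers of 301 to 350 bp numbered 829 (49.8%), those of 351 to 400 bp numbered 406 (24.4%), those of 401 to 500 bp numbered 309 (18.6%) and those over 500 bp made up 7.16%. Multiples of 50 bp dominated: 560 silencers measured exactly 350 bp, 239 measured 400 bp, 78 measured 500 bp and 7.28% of all measured 450 bp. Most wide silencers were thus within the stated range of fragment sizes, and 428 exceeded 400 bp.

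The threshold cuts through a crowded part of the width distribution. Just inside it lie 99 silencers of 301 bp, with a median score of 2.5, and just outside it lie 1274 of 300 bp, with a median score of 2.2. Of the 301 bp silencers, that with the top score, 6.6, lies at chr5:21468050-21468351. It is followed by chr10:6357700-6358001 with 5.7 and chr11:60538050-60538351 with 4.9. On the outer side, the 300 bp lines with the highest scores are chr4:115212500-115212800 with 6.2, then chr5:65168000-65168300 and chr5:106638901-106639201 with 4.5 each. High scores thus occur on both sides of the threshold.

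Wide silencers were rarer in 293T than in the other lines. They made up 1.40% of the autosomal 293T list (interval 1.33 to 1.46), against 2.31% of the K562 list (2973 silencers, interval 2.23 to 2.40) and 2.27% of the LNCap list (2990 silencers, interval 2.19 to 2.35). Lines over 500 bp made up 0.0998% of the 293T list, against 0.280% in K562 (360 lines) and 0.246% in LNCap (324 lines). Wide silencers held 0.652 Mb of the 9.91 Mb that the 293T list covers (6.57%), against 10.4% of the covered bases in K562 and 10.3% in LNCap. The counting intervals of 293T do not meet those of the other lines at 300, 400, 500 or 600 bp, but with 1 list per line the difference between lines could not be tested. The labels hold 56.7% as many output libraries for 293T as for K562, and 99.4% as many for LNCap, and the input libraries differ as given above; the part of either in the result was not tested.

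**Figure D1:**
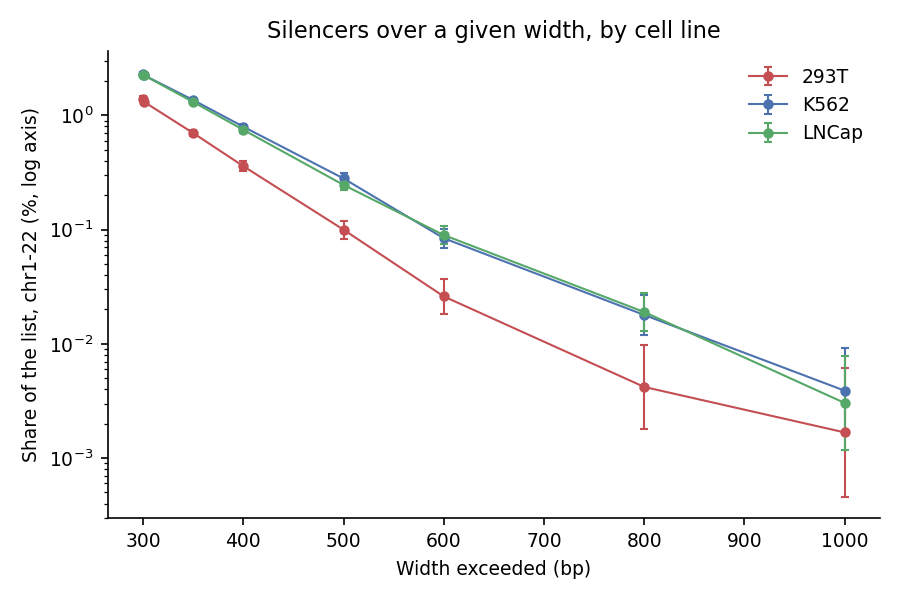
Share of each autosomal list (y axis, percent, log axis) that exceeds a given width (x axis, bp), for 293T, K562 and LNCap; points are shares and bars 95% Wilson intervals. The 293T points lie below those of K562 and LNCap up to 800 bp, starting at 1.40% against 2.31% and 2.27% over 300 bp.

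The 10 widest silencers span 700 to 1030 bp and score between 2 and 3.1. The widest lies on chromosome 9 (105046071 to 105047101, 1030 bp) at the lowest score in the list, 2. The next lie on chromosome 2 (92484200 to 92485201, 1001 bp, score 2.7) and again on chromosome 2 (33940801 to 33941701, 900 bp, score 2.1). Next in width is chr5:79675979-79676801 with 822 bp and a score of 2.3. After it come chr12:48259671-48260485 with 814 bp and 2.4, and chr3:44697225-44698013 with 788 bp and 2.5. Only that on chromosome 3 overlaps a silencer of another line, a LNCap silencer of 100 bp (44697671 to 44697771, score 2.5) near its middle. Silencers of 750 bp are chr20:34168510-34169260 with a score of 2.4, chr4:87964455-87965205 with 2.1 and chr15:58184847-58185597 with 2. The last of the 10, chr10:38836251-38836951, has 700 bp and a score of 3.1. Of these 10 silencers 1 met a silencer of K562 or LNCap.

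The authors' activity score is a number with 1 decimal and a lowest value of 2, on a scale that no source here defines. It comes from the same calls as the width, so its relation to width is a description. The median score of wide silencers was 2.3 (quartiles 2.1 and 2.5), equal to the median of the other 293T silencers (2.3, quartiles 2.1 and 2.6). The upper end was thinner. Scores of 3 or more were held by 9.08% of wide silencers (interval 7.79 to 10.6), where the whole autosomal list has 14.2%. Scores of 4 or more were held by 13 (0.782%, interval 0.457 to 1.33), where the whole list has 2.69%, and neither of the 2 infinite scores of the list belongs to a wide silencer. Lines of 201 to 300 bp had 11.1% at 3 or more (interval 10.2 to 12.1) and 1.53% at 4 or more (interval 1.20 to 1.95). Both shares lie below those of the whole list, so a thinner upper end was not particular to widths over 300 bp. They lie above the shares of the wide silencers, with intervals that overlap, and that difference was not tested. At the lowest score of 2 the wide silencers did not stand apart: 313 of them (18.8%) had it, where the whole list has 18.7%.

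Within the wide silencers, counting intervals did not separate the width classes by their share of high scores. Scores of 3 or more made up 9.77% of silencers of 301 to 350 bp (interval 7.93 to 12.0), 10.3% of those of 351 to 400 bp (7.74 to 13.7), 6.80% of those of 401 to 500 bp (4.49 to 10.2) and 5.88% of those over 500 bp (2.88 to 11.6). The intervals of the 4 classes overlap, so they cannot be put in order. Among silencers over 500 bp the highest score was 3.2, whereas lines of up to 50 bp reached 10.4. The same contrast was found in the other lists, where 3.77% of wide K562 silencers and 4.95% of wide LNCap silencers scored 3 or more, against 10.0% and 11.8% of the narrower lines.

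**Figure D2:**
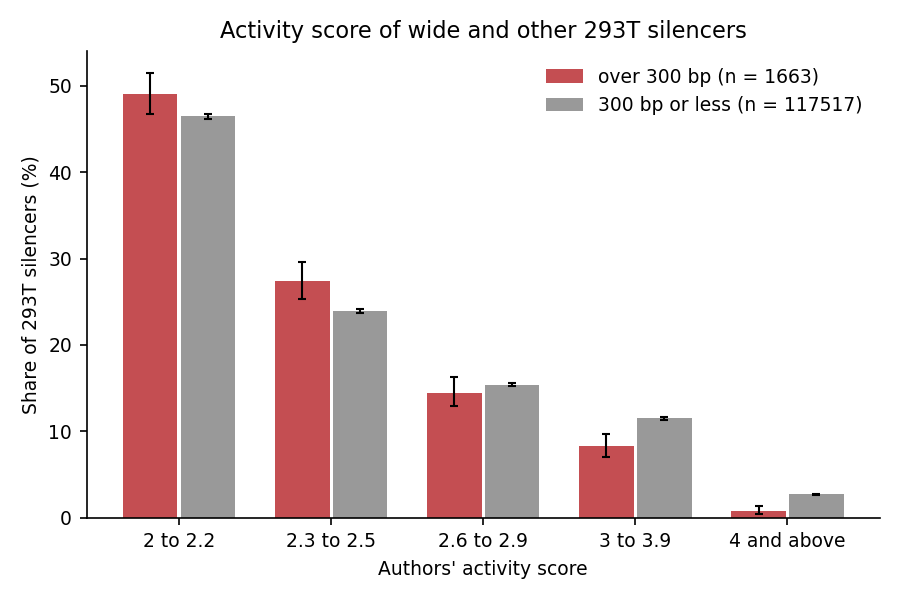
Share of 293T silencers (y axis, percent) in 5 classes of the authors' activity score (x axis), for 1663 silencers over 300 bp and 117517 of 300 bp or less; bars are shares and error bars 95% Wilson intervals. The wide silencers have a smaller share at 3 to 3.9 (8.30% against 11.5%) and at 4 and above (0.782% against 2.72%).

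The 10 wide silencers with the highest scores measured 301 to 500 bp. The top score, 6.6, is that of the 301 bp silencer on chromosome 5 named above, and the next, 5.7, that of the 301 bp silencer on chromosome 10, whose last 50 bp are a LNCap silencer (6357951 to 6358001, score 3). After these come chr12:20927200-20927550 with 5.4, chr7:111722955-111723300 with 5.3 and chr2:28306600-28307001 with 5.2. The 301 bp silencer on chromosome 11 named above follows with 4.9. A 500 bp silencer on chromosome 7 (75521751 to 75522251) scored 4.6 and holds a K562 silencer of 50 bp (75521851 to 75521901, score 2.2). The last of the 10 are chr3:178936750-178937100 with 4.4, chr17:53927500-53927801 with 4.4 and chr18:68785001-68785451 with 4.2. The 10 strongest spread over 9 chromosomes, and 2 of them met a silencer of another line.

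The score moved with the place of a silencer's ends on the 50 bp grid of the list. Silencers that start at a multiple of 50 (offset 0) make up 19.1% of the wide silencers (318, interval 17.3 to 21.1) and 4.47% of the others (interval 4.35 to 4.59). The width rule itself enters this contrast, since it takes in lines of 301 bp and leaves out those of 300 bp. The 185 wide silencers that start at offset 0 and end at offset 1 have a median width of 301 bp. Among wide silencers those that start at offset 0 have a median score of 2.5, and 64 of the 318 (20.1%, interval 16.1 to 24.9) score 3 or more, whereas of the 640 that start and end at offset 1 only 42 (6.56%, interval 4.89 to 8.75) do. Of the 13 wide silencers that score 4 or more, 8 start at offset 0. Among the other 293T silencers, the offset 0 lines likewise score higher, with 37.1% at 3 or more, against 8753 of the 62672 that start and end at offset 1. At equal offsets the wide silencers have the smaller share of high scores: 20.1% against 37.1% at offset 0, and 42 of 640 against 8753 of 62672 at offset 1. The part of the offset in the scores was not tested.

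Both ends lay at offset 0 or 1 in 53.8% of wide silencers (interval 51.4 to 56.2) and in 56.8% of the others (interval 56.5 to 57.1). The width was a multiple of 50 bp in 64.2% of wide silencers (interval 61.9 to 66.5) and in 92% of the others (interval 91.9 to 92.2). The width rule enters this contrast too, with 99 lines of 301 bp inside it and 1274 of 300 bp outside. Both ends shared an offset other than 0 and 1 in 362 wide silencers (21.8%) and in 37.5% of the others. In 10.3% of wide silencers the start was off the grid and the end on it, and in 83 (4.99%) the start was on it and the end off. Among the other silencers these last 2 kinds made up 1.71% and 1.48%.

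The series' design text describes silencers as specific to cells, and the K562 and LNCap lists, which played no part in choosing the wide silencers, give a measure of it. At least 1 bp of a K562 silencer lay in 9.56% of the 1663 wide silencers (interval 8.24 to 11.1), where the whole 293T list has 3.30%. A LNCap silencer lay in 185 (11.1%, interval 9.70 to 12.7), where the whole list has 3.58%. Silencers of both other lines lay in 51 (3.07%, interval 2.34 to 4.01), where the whole list has 0.791%. In all, 293 wide silencers (17.6%) met either list, where the whole list has 6.09%, and 1370 (82.4%) met neither. A further setting kept only silencers above the median score of their own list. It changed both which wide silencers were counted and which silencers they could meet. At this setting, of wide silencers above the 293T median score, 5.98% met a K562 silencer above the K562 median and 6.73% a LNCap silencer above the LNCap median. No share of the whole 293T list at this setting is given here.

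A wider interval meets another list more often wherever it lies. The same interval moved by 2, 5 and 10 kb to either side, which gives 6 flanks for each silencer, met a K562 silencer in 2.85% of cases (interval 2.54 to 3.19) for wide silencers and in 0.940% for the others. The wide silencers themselves thus met K562 3.36 times as often as their flanks (2.89 to 3.89, from the interval of the share), and the other silencers 3.41 times (3.31 to 3.52). For LNCap the flanks stood at 2.76% and 0.923%, and the ratios were 4.04 (3.52 to 4.62) for wide silencers and 3.76 (3.65 to 3.88) for the others. For both lists at once they were 4.08 (3.11 to 5.33) and 4.80 (4.49 to 5.12). Relative to equally wide flanks, no difference between wide and other silencers was detectable in these ratios beyond counting error. The raw shares were higher at larger widths in silencers and flanks alike, though not at every step.

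**Figure D3:**
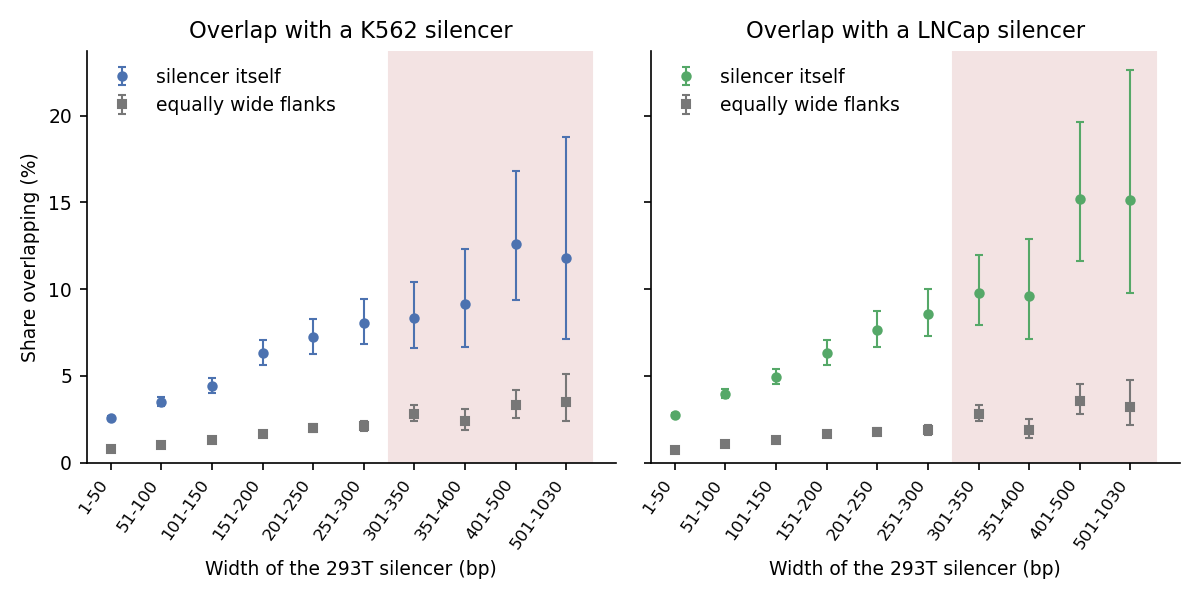
Share of 293T silencers (y axis, percent) that overlap a K562 silencer (left) or a LNCap silencer (right) by at least 1 bp, by width class (x axis, bp); circles are the silencers, squares the same intervals moved by 2, 5 and 10 kb to either side, bars 95% Wilson intervals, and the shaded classes are the wide silencers. Both rise with width, for K562 from 2.55% against flanks of 0.772% in the narrowest class to 12.6% against 3.29% at 401 to 500 bp.

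A measure per base, which takes the number of bases into account, separated wide silencers from the pooled others, most of which are 50 bp wide. Of the bases of wide silencers 3.22% lay in K562 silencers, against 0.554% of the bases of their flanks, a ratio of 5.81. Of the bases of the other 293T silencers 2.16% did, against 0.574% in their flanks, a ratio of 3.76. For LNCap the values were 3.51% against 0.564% for wide silencers (ratio 6.23) and 2.33% against 0.545% for the others (ratio 4.27). The narrower lines nearest in width came close to the wide silencers. At 251 to 300 bp 2.99% of bases lay in K562 silencers (ratio 5.04) and 3.40% in LNCap silencers (ratio 6.91). At 301 to 350 bp the values were 2.81% (ratio 4.43) and 3.05% (ratio 4.70). They were 3.03% and 2.97% at 351 to 400 bp, and 3.92% (ratio 6.46) and 5.04% (ratio 7.62) at 401 to 500 bp. Over 500 bp they were 3.87% and 3.53%. No intervals were computed for these values. The denser coverage thus does not begin at 300 bp.

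The per-base difference was uneven over the genome. Coverage by K562 silencers was higher in wide than in other silencers on 16 of 22 autosomes, with a mean of 3.80% ± 2.93 (SD, n = 22 autosomes) against 2.36% ± 0.742, and a mean difference of 1.45 percentage points ± 2.6. Coverage by LNCap silencers was higher on 18 of 22, with 3.85% ± 2.56 against 2.57% ± 1.01 and a mean difference of 1.28 ± 2.03. Single autosomes hold as few as 9 wide silencers, and no test was made over autosomes.

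At the centre, wide silencers again stood above the pooled others, while counting intervals did not separate them from the narrower lines nearest in width. The midpoint base lay in a K562 silencer in 54 of 1663 wide silencers (3.25%, interval 2.5 to 4.21) and in 2.04% of the others (interval 1.96 to 2.13). It lay in a LNCap silencer in 65 (3.91%, interval 3.08 to 4.95) and in 2.13% of the others (interval 2.05 to 2.21). At 251 to 300 bp the shares were 2.95% for K562 (interval 2.24 to 3.87) and 3.24% for LNCap (interval 2.5 to 4.20). At 301 to 350 bp they were 2.77% and 3.14%, and at 351 to 400 bp 3.45% and 4.19%. At 401 to 500 bp they were 3.88% (interval 2.24 to 6.66) and 6.15% (interval 3.97 to 9.40). Over 500 bp they were 4.20% and 2.52%. Away from the centre the coverage fell back quickly. Between 1000 and 2000 bp from the midpoint 0.543% of bases lay in K562 and 0.632% in LNCap silencers, against 0.560% and 0.555% around the other silencers.

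**Figure D4:**
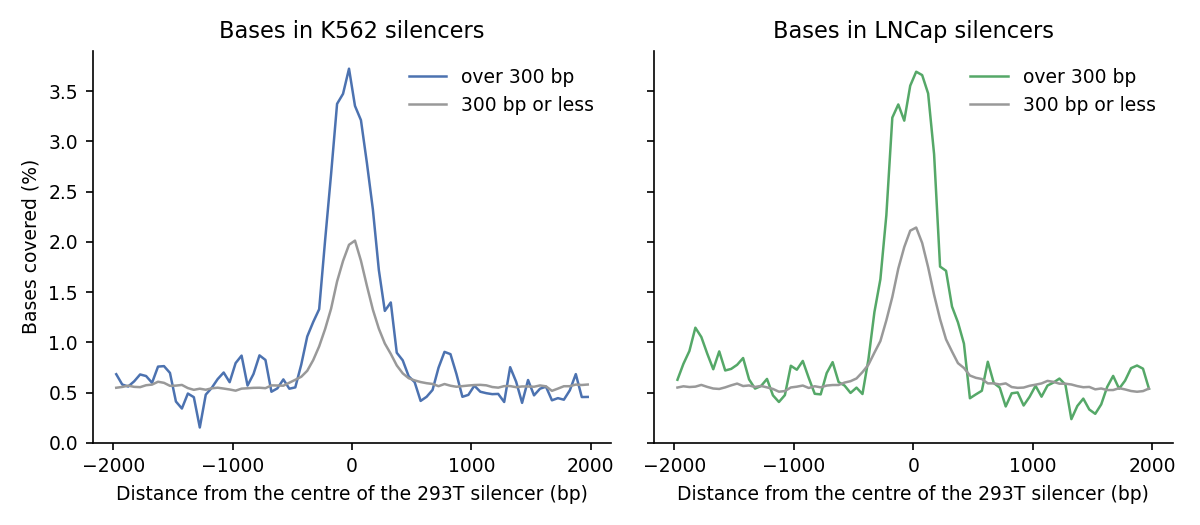
Percent of bases that lie in K562 (left) or LNCap (right) silencers (y axis) by distance from the midpoint of a 293T silencer (x axis, bp, 50 bp steps), averaged over 1663 silencers over 300 bp and over 117517 of 300 bp or less. Within 100 bp of the midpoint 3.44% (K562) and 3.53% (LNCap) of bases were covered for wide silencers, against 1.90% and 2.05% for the others.

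The K562 and LNCap silencers found inside wide 293T silencers were mostly short. The wide silencers that met K562 held 186 K562 silencers with a median width of 100 bp (quartiles 50 and 196 bp), of which 79 (42.5%) measured exactly 50 bp and 68.8% lay wholly inside the 293T silencer. The 185 that met LNCap held 222 LNCap silencers with a median width of 100 bp (quartiles 50 and 150 bp), of which 99 (44.6%) measured exactly 50 bp and 68% lay wholly inside. The other list covered a median of 26.7% (K562) and 25% (LNCap) of such a 293T silencer. At least 50% of the silencer was covered in 39 cases for K562 and in 31 of 185 for LNCap, and all of it in 2 and 5. Sharing of a wide silencer thus usually concerned a short stretch of it. Short lines are common in both lists, whose median width is 50 bp in K562 and in LNCap. The silencers that met the equally wide flanks had a median width of 50 bp in each list. Those that met the other 293T silencers had a median width of 100 bp in each list. By their median width, the silencers met by wide 293T silencers were thus not shorter than this background.

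Within a wide silencer the shared bases were spread along its length. In 5 equal stretches from start to end, K562 silencers covered 2.93%, 3.68%, 3.65%, 3.26% and 2.59% of bases, and LNCap silencers covered 3.44%, 3.31%, 3.83%, 3.70% and 3.29%. The shared bases were not concentrated at either end.

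Few wide silencers of 293T were wide elsewhere. A K562 silencer over 300 bp met 19 of them (1.14%, interval 0.733 to 1.78), where the whole 293T list has 0.242%, and a LNCap silencer over 300 bp met 16 (0.962%, interval 0.593 to 1.56), where the whole list has 0.316%. Between the other lines the figure was larger, since 284 of 2973 wide K562 silencers (9.55%, interval 8.55 to 10.7) met a wide LNCap silencer. The K562 and LNCap lists also overlapped more among narrower lines. A LNCap silencer of any width met 14.8% of K562 silencers of 300 bp or less, against 3.47% of the other 293T silencers. For wide silencers these shares were 51.2% and 11.1%. The larger figure is thus not particular to wide silencers. Wide silencers made up 10.2% of the K562 silencers that met a wide 293T silencer (interval 6.64 to 15.4), against 3.87% (interval 2.23 to 6.64) of those that met its flanks and 7.03% of those that met other 293T silencers. For LNCap the shares were 7.21% (interval 4.48 to 11.4), 4.03% (interval 2.32 to 6.91) and 8.64%. The difference between 293T and the other pair of lines was not tested.

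At 4 places a wide 293T silencer met a wide silencer of K562 and a wide silencer of LNCap. On chromosome 19 the 550 bp silencer at 44476501 to 44477051 (score 3.2) meets a K562 silencer of 350 bp (44476511 to 44476861, score 3) and a LNCap silencer of 796 bp (44476750 to 44477546, score 3.1). On the same chromosome that at 37877451 to 37877801 (350 bp, score 2.9) meets a K562 silencer of 350 bp (37877706 to 37878056). It also meets a LNCap silencer of 404 bp (37877297 to 37877701), which does not overlap the K562 one. On chromosome 22 that at 36956701 to 36957101 (400 bp, score 2.7) begins at the same base as a K562 silencer of 450 bp and a LNCap silencer of 600 bp. On chromosome 3 that at 171109801 to 171110151 (350 bp, score 2.2) meets a K562 silencer of 350 bp and a LNCap silencer of 321 bp. These 4 were singled out after their values were seen. Both ends were identical in 2 cases, each with LNCap: on chromosome 11 (76235401 to 76235801, score 2.3 in 293T and 2.4 in LNCap) and on chromosome 5 (126097201 to 126097551, score 2.2 in both). No wide silencer had both ends in common with a K562 silencer.

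The widest silencers that met both other lists had scores of 2 to 3.2. The first, on chromosome 5 (63032351 to 63033001, 650 bp, score 2), contains a K562 silencer of 550 bp (63032401 to 63032951, score 2.1) and a LNCap silencer of 150 bp that starts at the same base as the K562 one (score 2). Here the called stretch of K562 fills most of that of 293T. The 600 bp silencer on chromosome 7 (105711601 to 105712201, score 2.1) meets a K562 silencer of 150 bp and a pair of LNCap silencers of 50 bp. That on chromosome 11 (34819801 to 34820401, 600 bp, score 2.1) meets a K562 silencer of 100 bp (score 2.9) and LNCap silencers of 50 bp just before it (score 2.1) and inside it (score 2.8). In both, the other lines show only short calls.

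A 575 bp silencer on chromosome 6 (120124851 to 120125426, score 2.3) holds K562 silencers of 200 and 100 bp and a LNCap silencer of 50 bp that do not overlap each other. At the tip of chromosome 2 a 551 bp silencer (370299 to 370850, score 2.5) ends at the same base as a K562 silencer of 185 bp (score 3.1). A second of 551 bp, on chromosome 11 (25465600 to 25466151, score 2.5), meets a K562 silencer of 50 bp and LNCap silencers of 50 and 266 bp. Those of 550 bp lie on chromosome 19 (the one wide in all 3 lines, above), chromosome 11 (93391201 to 93391751, score 2.3) and chromosome 19 (49986951 to 49987501, score 2.2), where a LNCap silencer of 400 bp with a score of 3.9 overlaps. The tenth, of 500 bp, lies on chromosome 1 (222503001 to 222503501, score 2.8). Partners of very different width thus stand behind the word shared.

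Among wide silencers, sharing did not rise steadily with the score. Overlap with K562 was found in 7.72% at scores of 2 to 2.2 (interval 6.08 to 9.76) and in 13.8% at 2.3 to 2.5 (interval 11.0 to 17.3), then in 9.96% at 2.6 to 2.9 (interval 6.78 to 14.4) and 5.07% at 3 to 3.9 (interval 2.48 to 10.1). The intervals of the lowest 2 classes do not meet. The share that met either list was 15.6% at scores of 2 to 2.2 (interval 13.2 to 18.2), 20.9% at 2.3 to 2.5 (17.4 to 24.8), 19.9% at 2.6 to 2.9 (15.4 to 25.4) and 14.5% at 3 to 3.9 (9.58 to 21.3). At 4 and above it was 3 of 13. In the other 293T silencers the same share rose in each class, from 4.84% at 2 to 2.2 to 8.83% at 4 and above. Whether the 2 sets differ in this respect was not tested, and the intervals of wide silencers are wide enough to hold a rise of that kind up to 2.9. Wide silencers that start at offset 0, which score higher, met either list in 35 of 318 cases (11.0%, interval 8.02 to 14.9), and those that start and end at offset 1 in 21.1% of 640 (interval 18.1 to 24.4). In that comparison the subset with the higher scores is the less shared. Among the other 293T silencers the same shares were 5.07% at offset 0 (interval 4.51 to 5.69) and 5.41% at offset 1 (interval 5.24 to 5.59). These intervals overlap, although the offset 0 lines score higher there too.

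Wide silencers were found on every autosome in near proportion to the list. They made up between 0.765% (chromosome 21, 9 of 1177 lines, interval 0.403 to 1.45) and 1.76% (chromosome 19, 60 of 3408, interval 1.37 to 2.26) of a chromosome's 293T lines, with a median of 1.41%. The counting interval left out the share of the whole list, 1.40%, on 1 of 22 chromosomes, which is chromosome 8 (73 of 6678 lines, 1.09%, interval 0.870 to 1.37). In K562 the interval left out that list's share on 5 chromosomes and in LNCap on 10.

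Chromosomes 21 and 17 ranked differently in the lists. Chromosome 21 had the lowest wide share in 293T but the highest in both K562 (3.38%, 50 of 1481 lines, interval 2.57 to 4.42) and LNCap (4.10%, 59 of 1440, interval 3.19 to 5.25). Chromosome 17 stood at 1.23% in 293T (45 of 3658 lines, interval 0.921 to 1.64), 3.25% in K562 and 2.98% in LNCap. Chromosome 19 was high in all 3 lists, with 3.29% in K562 and 4.10% in LNCap. Chromosomes 17 and 21 were picked after their values were seen, and with 9 wide 293T silencers the value of chromosome 21 is loosely fixed.

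**Figure D5:**
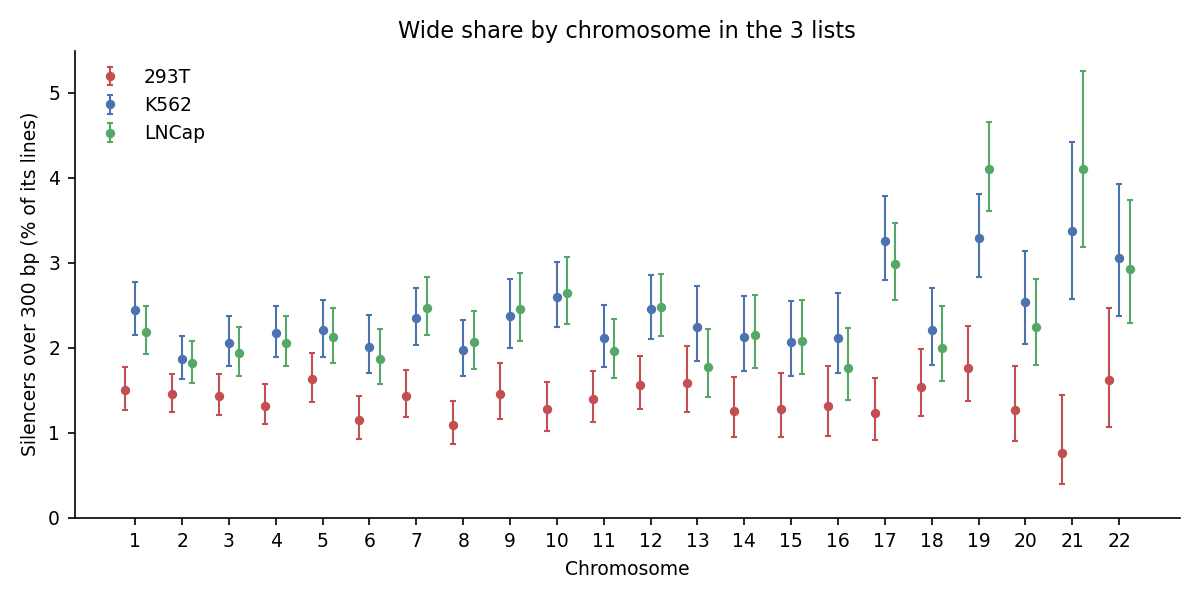
Silencers over 300 bp as a percent of a chromosome's lines (y axis) for chromosomes 1 to 22 (x axis) in the 293T, K562 and LNCap lists; points are shares and bars 95% Wilson intervals. The 293T shares lie between 0.765% and 1.76%, while K562 and LNCap rise on chromosomes 17, 19, 21 and 22.

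The wide silencers of chromosome 19 met the other lists more often than those of the other autosomes taken as a whole. Of 60 wide silencers there, 25 met K562 or LNCap (41.7%, interval 30.1 to 54.3), against 268 of 1603 on the other autosomes (16.7%, interval 15.0 to 18.6). Chromosomes 22 (38.1%, interval 20.8 to 59.1) and 20 (36.4%, interval 22.2 to 53.4) cannot be told from it by their intervals. The other 293T silencers of chromosome 19 met either list in 11.6% of cases, against 5.92% over all autosomes. Flanks on chromosome 19 were also met more often, in 7.78% of cases (interval 5.44 to 11.0) against 4.74% elsewhere, and the ratio to flanks was 5.36 on chromosome 19 and 3.53 elsewhere. Chromosome 19 holds 3 of the 19 wide silencers that met a wide K562 silencer and 6 of the 16 that met a wide LNCap one. Their median score was 2.25, against 2.3 elsewhere. Chromosome 19 is rich in genes and carries large clusters of KRAB zinc finger genes; which of these silencers lie in such genes was not examined. Chromosome 19 was singled out after its value was seen.

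Within the 293T list, wide silencers had a close neighbour less often than the pooled others, as did the lines just below 300 bp. Another 293T silencer lay within 500 bp of 330 of them (19.8%, interval 18 to 21.8), where the whole list has 26%. Lines of 251 to 300 bp had one in 18.5% (interval 16.7 to 20.4) and lines of 201 to 250 bp in 22.8% (interval 21.2 to 24.5). At a distance of at most 50 bp the shares were 10.2% (interval 8.80 to 11.7) for wide silencers and 13.9% (interval 13.7 to 14.1) for the others, and within 5000 bp they were 47.1% (interval 44.8 to 49.5) and 51% (interval 50.7 to 51.3). The median distance to the nearest 293T silencer was 5460 bp for wide silencers and 4782 bp for the others. Where a neighbour lay within 500 bp of a wide silencer, the nearest measured exactly 50 bp in 203 of 330 cases (61.5%) and over 300 bp in 2. A neighbour on each side within 500 bp was found for 13 wide silencers. The neighbours come from the same calls as the width, so these shares are given as a description.

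Wide silencers seldom lay close to each other. The median gap from one to the next was 1.06 Mb, and 12 neighbouring pairs, which involve 23 silencers, lay within 10 kb. The closest pair lies on chromosome 19, where 350 bp (11979058 to 11979408, score 2.1) and 447 bp (11979508 to 11979955, score 2.2) are separated by 100 bp, and a single LNCap silencer of 499 bp (11979301 to 11979800, score 2.8) bridges the gap. On chromosome 8, silencers of 337 bp (48219913 to 48220250, score 2.8) and 312 bp (48220463 to 48220775, score 2.2) lie 213 bp apart, and another of 450 bp (48224273 to 48224723, score 3.1) follows after 3498 bp. Of the 12 pairs, only these 2 share a silencer.

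Of the other pairs, that on chromosome 6 joins a silencer of 319 bp with a score of 4.2 (107411881 to 107412200) to one of 350 bp (107413201 to 107413551, score 2.3) at 1001 bp. Chromosome 19 holds 2 more, one from 17906651 to 17908619 with a gap of 1168 bp and one from 49421101 to 49423701 with a gap of 1800 bp. The remaining 6 have gaps of 2900 to 8935 bp and lie on chromosomes 2, 3, 4 and 5. Chromosome 19 thus holds 3 of the 12 pairs and 60 of the 1663 wide silencers.

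In bins of 1 Mb, the counts were low throughout. Of the bins that hold 293T lines, 1537 had no wide silencer, 850 had 1, 289 had 2, 62 had 3, 11 had 4 and 1 had 5. The fullest lies on chromosome 7 from 6 to 7 Mb, with 5 wide silencers of 65 lines, where K562 has 3 and LNCap 1. Bins with 4 include chromosome 19 from 48 to 49 Mb (59 lines), where LNCap has 7 wide silencers and K562 has 3, and chromosome 1 from 9 to 10 Mb (74 lines), where both have 4. Others with 4 hold few or none in the other lists, such as chromosome 10 from 32 to 33 Mb (1 in K562 and 0 in LNCap). The fullest bins of 293T were thus full in some cases and near empty in others for the other lines.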

How the data were processed

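Ss-STARR-seq silencers of 3 human cell lines were taken from 1 deposited list per line (chromosome, start, end, activity, per the file headers). Activity values, in the authors' deposited files, form a score with 1 decimal. Its scale, the caller, its thresholds and any pooling of libraries were not given in the sources used here. Bowtie2, SAMtools and hg38 are named in the submitters' processing notes, without tool versions. Left out were lines with damaged fields, other chromosome names, no positive width or over 5000 bp (58 for 293T, 12 for K562, 25 for LNCap); the comparisons used chromosomes 1 to 22.

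Overlap was at least 1 bp. Flanks are the same interval moved by 2, 5 and 10 kb to either side. Shares carry 95% Wilson intervals for counting error; depth is unknown. With 1 list per line no test across replicates was run. The named silencers are the 10 widest, the 10 with the highest finite score, the 10 widest in both other lists, 3 on each side of the threshold and pairs within 10 kb. The members and rules were chosen with earlier results of these data known; the scores by grid offset and the splits by chromosome were added after seeing the data. Overlap code was tested on simulated data. Gene features and sequences were not analysed here. Tables were made with pandas 2.3.3 and numpy 2.4.6 under Python 3.11.15, intervals with scipy 1.17.1 and plots with matplotlib 3.10.9.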

Additional observations from a re-analysis of the deposited data

Results flagged for a closer look

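Wide 293T silencers also occur outside the autosomes, in lines that the comparisons above did not use. On chromosomes X and Y 72 lines exceeded 300 bp, all on X, where they made up 1.19% of 6064 lines (95% Wilson interval 0.944 to 1.49), with a median score of 2.25 and a widest line of 750 bp. None of the 5 lines on Y exceeded 100 bp.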

How the results depend on the processing

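Of 49 alternative values, 35 stayed within 1.5 times the main count or inside the main value's 95% interval, and 14 did not. The number of wide silencers became 3358 over 250 bp, 834 over 350 bp and 2593 after merging lines up to 50 bp apart, of which 1494 were single lines; over 301 bp, an alternative chosen after seeing the data, it was 1564. Asking for the midpoint base lowered the shares to 3.25% (K562), 3.91% (LNCap) and 0.902% (both), where the whole list has 2.06%, 2.16% and 0.402%. This setting is stricter by construction. With scores above the median the shares were 5.98%, 6.73% and 1.20%. That setting also changes which wide silencers are counted. Over 350 bp, 4.08% met both lists, where the whole list has 0.791%. Another 293T silencer lay within 200 bp of 16.4% and within 1000 bp of 22.9%, where the whole list has 22.8% and 29.6%. The LNCap ratio to flanks was 4.62 over 350 bp and 4.68 with flanks 10 kb away only; the cause was not tested. Leaving out chromosome 19 kept the shares for K562, LNCap and both lists, and the K562 and LNCap ratios to flanks, inside their intervals; it was not run for neighbours. Alternatives at gene starts were not run, for want of a human annotation here. No paired analysis was possible because each line has 1 list, and no result comes from a test.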
